A study of Mus musculus with 20 samples.

Results

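A set of 10 of the 23992 genes in the deposited tables was followed across 20 RNA-seq libraries, because each gene is known to define regulatory T cells (Tregs) or to serve their suppressive function. The 10 genes were taken by symbol, a rule that uses no measured value, and each was read from its transcript with the highest summed read number. They comprise the transcription factors Foxp3, Ikzf2 and Ikzf4, the surface proteins Ctla4, Lrrc32, Nrp1 and Gpr83, the ecto-enzyme Nt5e, and the cytokine genes Il10 and Ebi3. Tregs came from spleen and lymph node of B6-Foxp3EGFP mice, which carry a green fluorescent reporter of Foxp3, by CD4+ enrichment and sorting for GFP. CD8+ T cells came by a kit, with no sort, from mice without the reporter that the isolation protocol calls C57BL/6J; the sample labels give C57BL/6N as strain for both cell types. Cells were left unstimulated (0 hr) or were stimulated ex vivo with 200 nM IL-2 or 200 nM IL-2-REH for 90 min or 4 hr. IL-2-REH is a partial agonist, a form of human IL-2 with substituted residues where IL-2 touches the common gamma chain of its receptor. There were 3 Treg libraries and 1 CD8+ library in each of these 5 conditions, and cells cultured without cytokine for 90 min or 4 hr were not among them, so cytokine and time in culture cannot be told apart in a comparison with unstimulated cells.

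Foxp3 is the transcription factor that specifies the Treg lineage, and Tregs depend on IL-2 because they carry the high-affinity receptor and make little IL-2 themselves. Signaling through that receptor activates STAT5, which is known to act on Foxp3. Tregs restrain other cells by several routes: Ctla4 competes with Cd28 for the ligands Cd80 and Cd86 on antigen-presenting cells, Lrrc32 (GARP) displays latent TGF-beta on the cell surface, Nt5e (CD73) makes adenosine from AMP, and Il10 and Ebi3 encode an inhibitory cytokine and a cytokine chain.

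The libraries held 20201392 to 63903764 reads on genes in Tregs and 38201668 to 45189835 in CD8+ T cells. All 10 genes passed the filter on low counts, as did 14992 genes in all. The labelled cell types were checked with their defining genes, in RPKM (reads scaled to the length of the transcript and to library size). Cd4 was at 56.4 to 168 RPKM in Tregs and 0.463 to 1.33 RPKM in CD8+ T cells, and Cd8a at 0.0879 to 1.84 and 103 to 256 RPKM. The 8 B cell markers summed to 2.24 to 21.0 RPKM, the 6 dendritic cell markers to 1.95 to 6.54 RPKM and the 4 NK cell markers to 0.695 to 18.1 RPKM in Tregs. The 10 macrophage markers summed to 16.3 to 93.0 RPKM in unstimulated Tregs and to 7.88 to 29.4 RPKM after 4 hr of IL-2. The 8 erythroid markers summed to 173 to 302 RPKM in the replicate 3 libraries of all 5 Treg groups and to 6.90 to 26.8 RPKM in the other Treg libraries. The part of these other cells in the results was not tested. Unstimulated Treg replicate 1 stood apart from the other 2 libraries of its group: its log-scale profile correlated at r = 0.930 with them and at r = 0.978 with the Tregs treated with IL-2-REH for 90 min. The other 2 correlated best with their own group (r of at least 0.974), while each of the treated libraries lay closest to a group other than its own. The own-group mean was over the other 2 libraries, whereas other groups gave the mean of 3, the same-numbered library among them. The r values within and between groups are therefore not strictly alike. Ramp3 was at 219 RPKM in unstimulated replicate 1 against 2.91 and 2.25 RPKM in the other 2, and Gls2 at 5.42 against 0.110 and 0.0397 RPKM. The other genes of the IL-2 response that were checked did not follow: Socs2, Il2ra, Lta, Bcl2 and Myc were lower in it than in both others (Lta at 3.84 against 22.3 and 19.0 RPKM), and Cish and Socs3 lay between them. The labels say nothing that sets this library apart, and whether it was labelled or handled otherwise cannot be told from them. The counts of called genes against unstimulated Tregs are therefore given with and without that library, and so are the values it changed most. The numbers of the Treg replicates paired the libraries across groups, and a fit that used them as a block is given where it changed a call. Nothing states that the replicates came from separate mice, so the p-values measure only the spread between these libraries.

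Foxp3, the gene the sort was based on, lies on chromosome X from 7579676 to 7595243 on the plus strand (GRCm38, the build of the files). Of the other genes called higher with IL-2 than in unstimulated Tregs, Ikzf4 lies on chromosome 10 from 128630839 to 128669671 (minus strand). Lrrc32 lies on chromosome 7 from 98489305 to 98501831 and Gpr83 on chromosome 9 from 14859880 to 14870789 (both plus strand). RefSeq gives Foxp3 more than 1 start, and the 250 bases before the inner start, at chrX:7580233-7580482, are shown because they were the only window before an annotated start of these genes that held TTCNNNGAA, the palindrome STAT proteins are known to favor. The window lies in the first intron of the main Foxp3 transcripts, capitals mark the match, and it runs 5′ to 3′ on the plus strand:
Foxp3 inner start: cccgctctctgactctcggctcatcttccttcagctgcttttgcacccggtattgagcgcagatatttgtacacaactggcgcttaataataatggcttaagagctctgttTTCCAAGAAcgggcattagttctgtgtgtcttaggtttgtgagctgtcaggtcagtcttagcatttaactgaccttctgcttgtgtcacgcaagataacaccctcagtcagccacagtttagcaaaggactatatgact
The match spans positions 7580344 to 7580352 and begins 139 bases before that start. RefSeq windows were given for 6 of the 10 genes (Foxp3, Ctla4, Nrp1, Ebi3, Gpr83 and Nt5e), 7 windows in all, and 1 of the 7 held the sequence, which reads the same on both strands. Of all 32851 windows of the same length, 2306 held it, or 7.02%, so 1 of 7 is a description of these windows and no sign of a site.

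In Tregs the 10 genes spanned a wide range of levels. Ctla4 was the highest, with a median of 351 RPKM over the 15 libraries, and was followed by Lrrc32 at 238, Foxp3 at 124, Nt5e at 100.2, Gpr83 at 71.1, Ikzf2 at 65.8, Ikzf4 at 44.0, Nrp1 at 19.4, Il10 at 11.1 and Ebi3 at 3.60 RPKM. Ctla4 exceeded Lrrc32 within 13 of 15 libraries and Lrrc32 exceeded Foxp3 in 13, whereas Gpr83 exceeded Ikzf2 in only 8, so those neighbors could not be ordered. Ebi3 was below Il10 in all 15 libraries. Gpr83 varied the most of the 10, 28.1-fold from its lowest to its highest Treg library, and Ikzf2 the least, 2.45-fold. The rank of Gpr83 rested on unstimulated replicate 1, the library that stood apart. In the other Treg libraries Gpr83 lay between 32.3 and 168 RPKM. Ebi3 varied 7.95-fold and Lrrc32 5.92-fold over all 15 libraries.

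**Figure D1:**
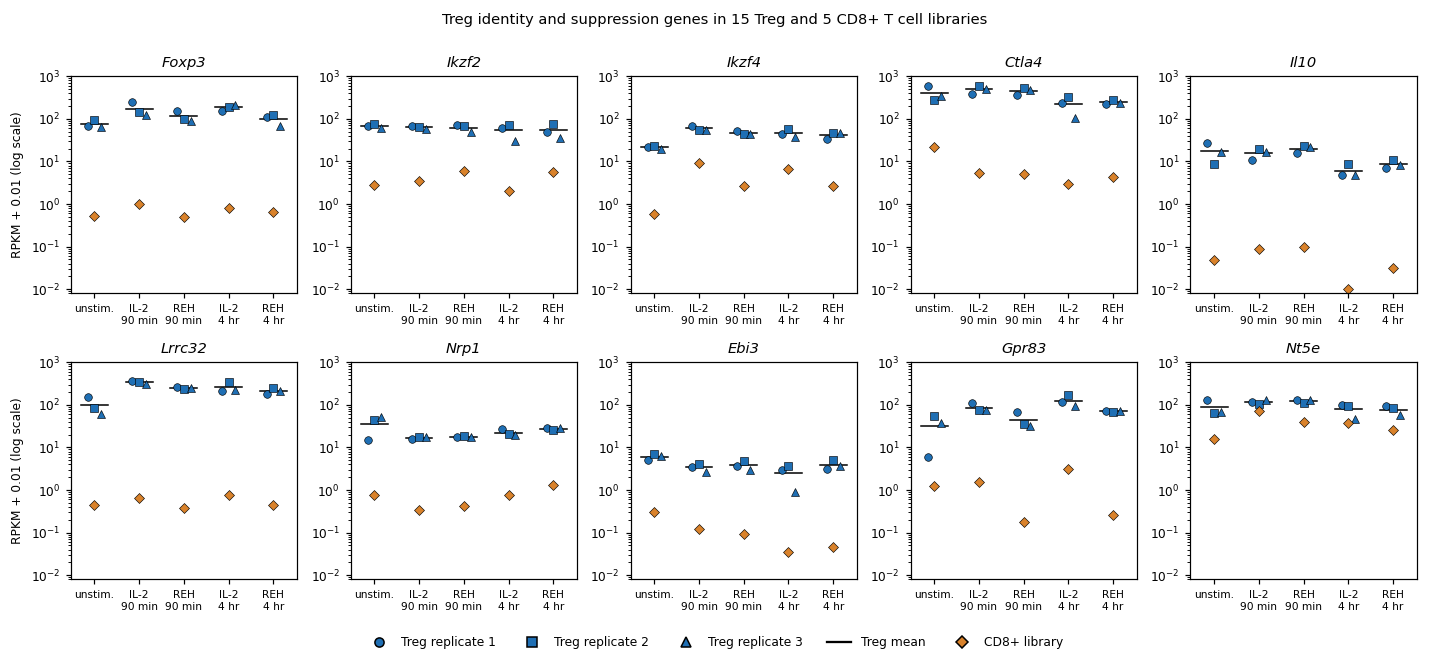
RPKM plus 0.01 (log axis) of each of the 10 genes in unstimulated cells and after IL-2 or IL-2-REH (REH) at 90 min and 4 hr; blue points are the 3 Treg libraries of a condition by replicate number, the black line is their mean, and orange diamonds are the single CD8+ library. For 9 of the 10 genes every Treg point lies above every CD8+ point; Nt5e is the exception, with Tregs at 47.8 to 130 RPKM and CD8+ T cells at 15.9 to 71.2 RPKM.

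The first question was which of these genes differed between Tregs treated with IL-2 and unstimulated Tregs. After 90 min, Foxp3, Ikzf4 and Lrrc32 rose in Tregs treated with IL-2, and after 4 hr these 3 genes and Gpr83 had risen. The changes were 2.23- to 4.27-fold where called, and edgeR's quasi-likelihood test called none of the 10 genes lower, where 0.0734% of all tested genes were at 90 min and 1.09% at 4 hr. At 90 min 3 of the 10 genes were called higher, where 0.78% of all tested genes were, and at 4 hr 4 of 10 were, where 1.17% of all genes were. The median log2 fold change of the 10 genes was 0.46 at 90 min and -0.20 at 4 hr, against -0.06 and 0.00 over all genes tested. Ikzf2, Ctla4, Il10, Nrp1, Ebi3 and Nt5e did not pass edgeR's test at either time with all libraries, while DESeq2 and the fit with a replicate block called Il10 and Ebi3 lower at 4 hr. The 3 libraries of a group lay apart from the 3 unstimulated ones for 4 genes above (Foxp3, Ikzf4, Lrrc32 and Gpr83) at both times, where 7.14% and 5.97% of all genes did. They lay apart for 1 gene below (Ebi3) at 90 min, where 5.53% did, and for 2 below (Il10 and Ebi3) at 4 hr, where 8.72% did.

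Foxp3 was at 67.0, 92.8 and 65.2 RPKM in unstimulated Tregs (replicates 1, 2 and 3). It was at 252, 146 and 126 RPKM after 90 min of IL-2 and at 151, 194 and 211 RPKM after 4 hr. Each IL-2 library was above each unstimulated library at both times. Foxp3 thus rose 2.52-fold at 90 min (95% interval 1.74 to 3.66; log2 fold change 1.33 ± 0.25 SE; adjusted p = 0.0217, edgeR's quasi-likelihood test with Benjamini-Hochberg adjustment). At 4 hr it rose 2.63-fold (1.82 to 3.82; adjusted p = 0.0110 in the same edgeR test). Without unstimulated replicate 1 the 90 min value was 1.34 on the log2 scale (edgeR adjusted p = 0.00942), and limma on log2(RPKM + 1) did not call it at 90 min (adjusted p = 0.0900). In the GENCODE annotation, 12.9% of the exonic bases of Foxp3 overlap Ccdc22 on the opposite strand and 18.6% overlap the noncoding Flicr on its own strand, and the use of strand in counting is not given in the sources used here.

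Ikzf4 encodes Eos, an Ikaros-family factor that works with Foxp3 in gene repression. Its levels were 21.9, 23.1 and 20.0 RPKM in unstimulated Tregs, 69.3, 55.3 and 55.1 RPKM after 90 min of IL-2, and 43.9, 58.0 and 38.1 RPKM after 4 hr. The unstimulated libraries spread little and lay well below the treated ones, with no overlap. Ikzf4 rose 3.02-fold at 90 min (95% interval 2.35 to 3.89; edgeR adjusted p = 0.000294) and 2.23-fold at 4 hr (1.74 to 2.87; edgeR adjusted p = 0.00347). Ikzf2, which encodes the related factor Helios, was at 61.4 to 76.1 RPKM unstimulated, 58.0 to 67.6 RPKM at 90 min and 31 to 71.3 RPKM at 4 hr. Its log2 fold change was 0.04 (95% interval -0.51 to 0.60) at 90 min and -0.29 (-0.84 to 0.27) at 4 hr, neither called. Of the other Ikaros-family genes Ikzf1, Ikzf3 and Ikzf5, none was called by edgeR at either time with IL-2 (adjusted p 0.110 to 0.892), although Ikzf3 at 4 hr was called with the replicate block (log2 fold change -0.64, adjusted p = 0.0441).

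Lrrc32 is the gene of GARP, the surface anchor for latent TGF-beta. It was at 153, 83.4 and 61.8 RPKM in unstimulated Tregs, at 366, 336 and 304 RPKM after 90 min of IL-2, and at 208, 350 and 229 RPKM after 4 hr. Unstimulated replicate 1 was the highest of its group, yet it was still below every IL-2 library. The rise was 3.60-fold at 90 min (95% interval 2.25 to 5.78; edgeR adjusted p = 0.0120) and 2.66-fold at 4 hr (1.67 to 4.23; edgeR adjusted p = 0.0343). Without unstimulated replicate 1 the log2 fold change at 90 min was 2.44 in place of 1.85.

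Gpr83, a G protein-coupled receptor known as a Treg marker, differed the most of the 10 between the unstimulated library that stood apart and the other 2. It was at 6.00, 53.4 and 37.5 RPKM in unstimulated Tregs, with 839 reads in replicate 1. After IL-2 it was at 108, 75.2 and 73.8 RPKM at 90 min and at 115, 168 and 95.6 RPKM at 4 hr. Every IL-2 library was above every unstimulated one, but the fold within replicate 1 was 18.0 at 90 min, against 1.41 and 1.97 within replicates 2 and 3. Gpr83 was called at 4 hr, with a log2 fold change of 2.09 ± 0.48 SE (edgeR adjusted p = 0.0396), and not at 90 min (log2 fold change 1.61, adjusted p = 0.161), where DESeq2 did call it (adjusted p = 0.0220). Leaving out unstimulated replicate 1, edgeR called it at both times, with smaller changes of 1.14 (adjusted p = 0.0106) and 1.62 (adjusted p = 0.00271).

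Ctla4, the inhibitory receptor, did not pass edgeR's test with IL-2. It was at 589, 273 and 351 RPKM in unstimulated Tregs, at 386, 589 and 498 RPKM after 90 min, and at 235, 329 and 106 RPKM after 4 hr. The groups overlapped at both times, with log2 fold changes of 0.39 (95% interval -0.44 to 1.23) and -0.88 (-1.72 to -0.04). With unstimulated replicate 1 left out they were 0.88 and -0.39, neither called by edgeR. Nt5e, which encodes the adenosine-forming enzyme CD73, was at 64.4 to 128 RPKM unstimulated, 104 to 127 RPKM at 90 min and 47.8 to 100.2 RPKM at 4 hr, with all 3 ranges overlapping. With unstimulated replicate 1 left out Nt5e was called at 90 min (log2 fold change 1.03 in place of 0.52, edgeR adjusted p = 0.0353).

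Nrp1, a receptor for semaphorins used as a marker of thymus-derived Tregs, was at 15, 43.2 and 50.7 RPKM in unstimulated Tregs. After IL-2 it was at 15.6, 17.6 and 17.4 RPKM at 90 min and at 26.4, 20.4 and 19.4 RPKM at 4 hr. Unstimulated replicate 1 sat at the level of the treated libraries, and replicates 2 and 3 were well above all of them. Nrp1 did not pass the test with all libraries (log2 fold change -0.92, edgeR adjusted p = 0.226 at 90 min; -0.61 and 0.336 at 4 hr). Without that library it fell by 1.25 on the log2 scale at 90 min (edgeR adjusted p = 0.00400) and by 0.95 at 4 hr (adjusted p = 0.0236). Its partner gene Sema4a, whose product is a ligand that steadies Tregs, had a log2 fold change of -2.35 at 4 hr (edgeR adjusted p = 0.148), and with the replicate block it fell by 2.18 (adjusted p = 0.000703).

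The 2 cytokine genes had their lowest means at 4 hr of IL-2, and whether they were called lower there depended on the tool. Il10 was at 27.1, 8.59 and 16.8 RPKM unstimulated, at 11.1, 19.5 and 17.0 RPKM at 90 min, and at 4.73, 8.52 and 4.75 RPKM at 4 hr. The groups did not overlap at 4 hr, although replicate 2 was at 8.59 before and 8.52 after. Il10 had a log2 fold change of -1.56 at 4 hr with adjusted p = 0.0764 by edgeR, and adjusted p = 0.0449 with the replicate number as a block, a fit that called 6 of the 10 genes and 6.94% of all genes. DESeq2 called it at 4 hr (adjusted p = 0.00779). Without unstimulated replicate 1, which was the highest Il10 library, the log2 fold change was -0.99 (edgeR adjusted p = 0.132). Ebi3, a chain shared by the cytokines IL-27 and IL-35, was at 4.95, 7.19 and 6.13 RPKM unstimulated, at 3.55, 4.16 and 2.62 RPKM at 90 min and at 3.0, 3.61 and 0.905 RPKM at 4 hr. Every IL-2 library was below every unstimulated library, and the log2 fold change at 4 hr was -1.23 with edgeR adjusted p = 0.105, or 0.0268 with the block and 0.0186 by DESeq2. Ebi3 shares 270 exonic bases, 23.4% of its own, with a gene on the opposite strand, and reads on them cannot be told apart without strand. Its partner chains were near the floor in Tregs, with Il12a at a mean of 0.0699 ± 0.0712 and Il27 at 0.138 ± 0.104 RPKM (SD, n = 3) in unstimulated cells. Within each replicate number the macrophage markers were also highest in the unstimulated library, at 16.3, 93.0 and 67.65 RPKM (replicates 1, 2 and 3). In unstimulated replicate 1 they were below every treated library of replicates 2 and 3. A set of 8 genes induced by cell handling summed to 1270 to 2111 RPKM in unstimulated Tregs against 365 to 946 RPKM after 4 hr of IL-2. The part of either set in the lower values of Il10, Ebi3 and Nrp1 was not tested.

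**Figure D2:**
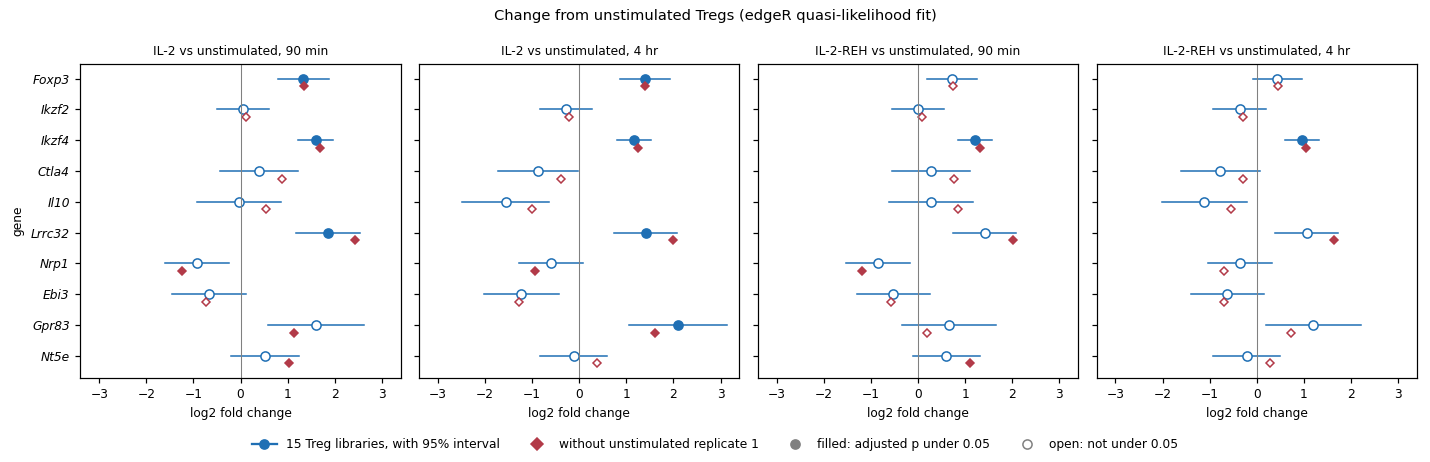
Log2 fold change of each gene against unstimulated Tregs (edgeR quasi-likelihood fit) for IL-2 and IL-2-REH at 90 min and 4 hr; blue circles with bars are estimates from 15 Treg libraries with 95% intervals, red diamonds the estimates without unstimulated replicate 1, filled where adjusted p is under 0.05. Foxp3, Ikzf4 and Lrrc32 are filled in both IL-2 panels, Gpr83 in the 4 hr IL-2 panel, and among blue circles only Ikzf4 in the IL-2-REH panels.

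These calls depended on single libraries. Without unstimulated replicate 1, edgeR called 6 of the 10 genes at 90 min of IL-2 (Foxp3, Ikzf4, Lrrc32, Nrp1, Gpr83 and Nt5e) and 5 at 4 hr, where 12.9% and 8.87% of all genes were then called in either direction. Without unstimulated replicate 2, or without unstimulated replicate 3, only Ikzf4 was called at 90 min. At 4 hr only Ikzf4 was called without unstimulated replicate 3. Only Foxp3 and Ikzf4 (2 genes) were called without replicate 2 or 3 of IL-2 at either time or of IL-2-REH at 90 min. Gpr83 also lost its call at 4 hr without replicate 1 of IL-2 at either time. The same held without any 1 library of IL-2-REH at 4 hr. Without unstimulated replicate 2, Lrrc32 was not called at 4 hr and Il10 was. Leaving out any 1 library of IL-2 at 90 min left 2 of the 3 genes called at 90 min, and with replicate 2, or replicate 3, left out of every group edgeR called 0 of 10 at both times. The log2 fold change at 90 min was then 1.48 and 1.37 for Foxp3 and 1.58 and 1.51 for Ikzf4. Apart from the fits without unstimulated replicate 1, the share of all genes called in these fits is not given. Lost calls of these genes cannot be told from a general loss of calls.

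The second question was how the same genes differed between Tregs treated with the partial agonist and unstimulated Tregs. With IL-2-REH, edgeR called only Ikzf4 among the 10 genes, at both times. That is 1 of 10 genes at 90 min, where 0.0934% of all genes were called higher and 0.0% lower, and 1 of 10 at 4 hr, where 0.16% were higher and 0.153% lower. Every IL-2-REH library was above every unstimulated one for 2 genes at 90 min (Ikzf4 and Lrrc32; 5.73% of all genes) and 3 at 4 hr (also Gpr83; 7.68%), and below for 1 at 90 min (Ebi3; 4.25%) and 0 at 4 hr (6.06%). DESeq2 called 2 of the 10 (Ikzf4 and Lrrc32) at each time, where it called 0.763% and 4.19% of all genes; with IL-2 it called 4 at 90 min (Gpr83 besides the 3 by edgeR) and 6 at 4 hr (Il10 and Ebi3 besides the 4), where it called 4.1% and 7.2%. Ikzf4 was at 50.7, 44.0 and 43.6 RPKM at 90 min and at 34.4, 46.2 and 46.1 RPKM at 4 hr, above every unstimulated library. The rise was 2.33-fold at 90 min (95% interval 1.81 to 2.99; edgeR adjusted p = 0.0223) and 1.95-fold at 4 hr (1.52 to 2.50; edgeR adjusted p = 0.0302).

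Lrrc32 was at 264, 238 and 243 RPKM after 90 min of IL-2-REH and at 175, 252 and 214 RPKM after 4 hr, again above every unstimulated library. With all libraries it did not pass the edgeR test (log2 fold change 1.42, adjusted p = 0.216 at 90 min; 1.06 and 0.159 at 4 hr). Without unstimulated replicate 1 it was called at both times, at 2.01 (edgeR adjusted p = 0.000179) and 1.65 (adjusted p = 0.00128). Foxp3 was at 150, 100.3 and 90.5 RPKM after 90 min and at 113, 124 and 67.2 RPKM after 4 hr, ranges that reached into the unstimulated one. Its log2 fold changes of 0.73 (95% interval 0.20 to 1.26) and 0.44 (-0.09 to 0.97) were not called. Gpr83 was at 66.8, 35.8 and 32.3 RPKM at 90 min, overlapping unstimulated cells, and at 71.1, 66.5 and 72.8 RPKM at 4 hr, above all of them, with a log2 fold change of 1.21 (edgeR adjusted p = 0.278).

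Without unstimulated replicate 1, edgeR called 4 of the 10 genes at 90 min of IL-2-REH (Ikzf4, Lrrc32, Nrp1 and Nt5e), where 12.1% of all genes were called, and 2 at 4 hr (Ikzf4 and Lrrc32), where 6.93% were. No member, 0 of 10, was called at 90 min without unstimulated replicate 2 or 3, without any 1 of the 3 libraries of IL-2-REH at 90 min, or without replicate 2 of IL-2 at 90 min. At 4 hr no member was called without unstimulated replicate 2 or 3, without replicate 2 or 3 of IL-2-REH at either time or of IL-2 at 90 min, or without replicate 1 of IL-2 at 4 hr. For the fits that called no member the share of all genes called is likewise not given.

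The direct comparison of the 2 cytokines at the same dose and time is a test of the difference itself. None of the 10 genes passed it at 90 min or at 4 hr by edgeR's quasi-likelihood test, where 0.0133% and 0.0267% of all genes did. At an unadjusted p under 0.05 there were 2 genes at 90 min (Foxp3 and Ikzf4) and 1 at 4 hr (Foxp3). The share of all genes under that limit is not given, so such counts, here and below, are no result about these genes. limma on log2(RPKM + 1) called 0 at both times. DESeq2 called 0 at 90 min, where it called 0.107% of all genes, and 1 (Foxp3) at 4 hr, where it called 0.456%.

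Foxp3 was lower with IL-2-REH than with IL-2 in each of the 3 same-numbered pairs at both times. The ratio of RPKM was 0.597, 0.686 and 0.721 at 90 min and 0.749, 0.640 and 0.319 at 4 hr. The groups overlapped at 90 min and did not overlap at 4 hr. The log2 difference was -0.61 (95% interval -1.13 to -0.08) at 90 min and -0.96 (-1.49 to -0.43) at 4 hr. The 4 hr difference had an unadjusted p = 0.00173 and an adjusted p = 0.509 by edgeR, with 0.218 for the replicate block and 0.0413 by DESeq2.

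Gpr83 was also lower with IL-2-REH in all 3 pairs at both times, and its groups did not overlap at either. The ratios were 0.619, 0.476 and 0.438 at 90 min and 0.619, 0.395 and 0.762 at 4 hr. The log2 differences of -0.95 (95% interval -1.96 to 0.05) and -0.89 (-1.89 to 0.12) were not called. Lrrc32 was likewise lower with IL-2-REH in all 3 pairs at both times. Il10, Nrp1 and Ebi3 were higher with IL-2-REH in all 3 pairs at both times. Counted by non-overlap, 3 of 10 genes were lower in every IL-2-REH library at 90 min (Ikzf4, Lrrc32 and Gpr83), where 3.04% of all genes were, and 2 of 10 at 4 hr (Foxp3 and Gpr83), where 2.36% were. Nrp1 was the 1 gene higher in every IL-2-REH library at 90 min, at 17.7 to 18.1 against 15.6 to 17.6 RPKM, where 2.42% of all genes were, and 0 of 10 were at 4 hr, where 5.44% were.

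The other genes had estimates nearer to 0 at 90 min, and none was called. At 90 min the log2 difference was -0.38 (95% interval -0.73 to -0.02) for Ikzf4, -0.43 (-1.09 to 0.23) for Lrrc32 and -0.12 (-0.95 to 0.72) for Ctla4. At 4 hr it was -0.20 (-0.55 to 0.16) for Ikzf4, -0.35 (-1.01 to 0.31) for Lrrc32 and 0.10 (-0.73 to 0.94) for Ctla4. Il10 was at 0.32 (-0.58 to 1.21) and 0.45 (-0.45 to 1.36) at the 2 times, Ebi3 at 0.15 (-0.63 to 0.92) and 0.60 (-0.18 to 1.39), and Nrp1 at 0.07 (-0.60 to 0.75) and 0.25 (-0.43 to 0.92). Ikzf2 was at -0.04 (-0.60 to 0.51) and -0.08 (-0.63 to 0.48) and Nt5e at 0.09 (-0.63 to 0.80) and -0.09 (-0.81 to 0.62). These intervals come from the main fit, which did not use the pairing of replicate numbers. They leave room for differences of more than 1.5-fold in most cases, so they do not show equal action. Within same-numbered pairs the ratio of RPKM for Ctla4 was 0.947, 0.909 and 0.934 at 90 min and 0.958, 0.837 and 2.22 at 4 hr. For Nt5e it was 1.12, 1.08 and 1.02 at 90 min and 0.923, 0.902 and 1.22 at 4 hr. The change of the difference from 90 min to 4 hr was called for 0 of 10 genes by edgeR, where 0.0% of all genes were called; 0 members had an unadjusted p under 0.05, and DESeq2 and limma called 0. For Foxp3 that change was -0.35 (95% interval -1.10 to 0.39) on the log2 scale.

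**Figure D3:**
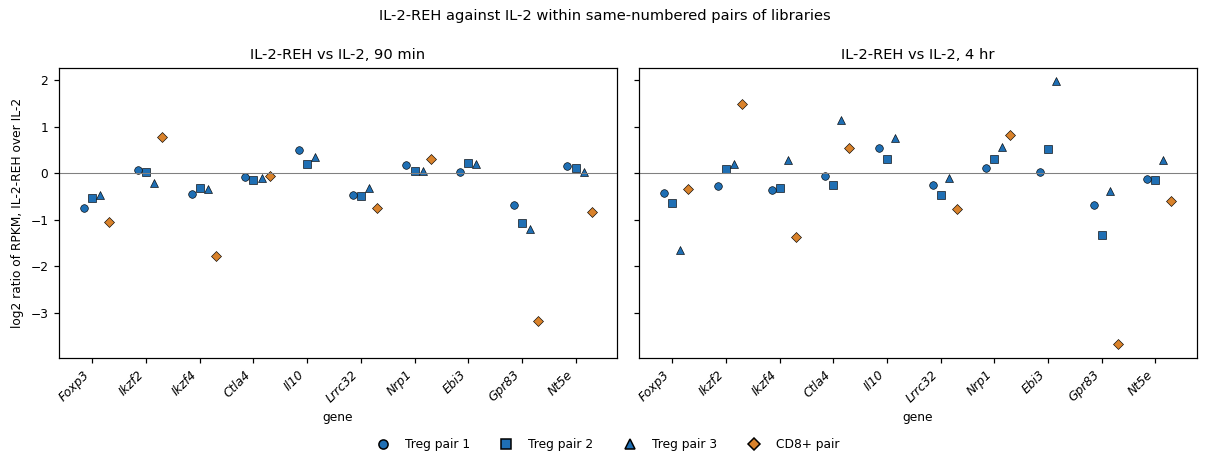
Log2 ratio of RPKM with IL-2-REH over IL-2 within same-numbered pairs of libraries, at 90 min (left) and 4 hr (right); blue symbols are the 3 Treg pairs by number and orange diamonds the CD8+ pair, drawn only where its 2 libraries average at least 0.3 RPKM. All 3 Treg pairs of Foxp3, of Gpr83 and of Lrrc32 lie below 0 at both times, with Foxp3 ratios of 0.597 to 0.721 at 90 min and 0.319 to 0.749 at 4 hr. All 3 Treg pairs of Il10, of Nrp1 and of Ebi3 lie above 0 at both times.

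Time in culture was compared within each cytokine. None of the 10 genes passed edgeR's test between 4 hr and 90 min for IL-2 or for IL-2-REH, and 0.0% of all genes did. At an unadjusted p under 0.05 there were 3 genes with IL-2 (Ikzf4, Ctla4 and Il10) and 3 with IL-2-REH (Ctla4, Il10 and Nt5e), and limma called 0. DESeq2 called 2 (Ctla4 and Il10) with IL-2, where it called 2.78% of all genes, and 0 with IL-2-REH, where it called 1.99%. Without replicate 1 of every group edgeR called 1 gene with IL-2, Il10 (adjusted p = 0.0437), where 4.32% of all genes were called.

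The same 4 genes had groups that did not overlap between 90 min and 4 hr within either cytokine. Ctla4, Il10 and Nt5e were lower at 4 hr in every library (3 of 10 genes, where 8.62% of all genes were lower for IL-2 and 6.92% for IL-2-REH), and Nrp1 was higher (1 of 10, where 8.52% and 12.2% were). Ctla4 was at 366, 535 and 465 RPKM at 90 min and at 225, 276 and 235 RPKM at 4 hr of IL-2-REH, a log2 fold change of -1.05 (95% interval -1.89 to -0.21), beside -1.27 (-2.12 to -0.42) with IL-2. Il10 was at 15.5, 22.6 and 21.6 RPKM at 90 min and at 6.86, 10.6 and 8.08 RPKM at 4 hr of IL-2-REH, with log2 fold changes of -1.39 (-2.31 to -0.48) and, with IL-2, -1.53 (-2.45 to -0.61). Replicate 3 of IL-2 at 4 hr, the shallowest library at 20201392 reads, was the lowest of all Treg libraries for Ctla4, Ebi3, Ikzf2 and Nt5e.

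Against CD8+ T cells the levels are a description, since each CD8+ condition was 1 library and no test was made. Foxp3 is no finding in this comparison because the Tregs were sorted by its reporter. Over the matched conditions 10 of 10 genes were more than 2-fold higher in Tregs (log2 ratio of RPKM + 1 over 1) in unstimulated cells, where 8.78% of genes with a mean of at least 1 RPKM in either cell type were. The count was 9 of 10 after 90 min of IL-2, where 9.12% were, and 10 in the other conditions, where 10.2% to 10.4% were. For 9 of 10 genes every Treg library was above every CD8+ library, as it was for 7.38% of genes. The 10 genes were chosen as known Treg genes, and only 5 of them averaged at least 1 RPKM in CD8+ T cells. The others entered the comparison through their Treg levels alone. These counts therefore follow largely from how the genes were chosen and are no finding. In bulk libraries, fewer cells that express a gene and less RNA per cell cannot be told apart. The 4 NK cell markers summed to 33.1 to 65.4 RPKM in CD8+ libraries, above the Treg range, and their part in these values was not tested.

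Several genes were close to absent in CD8+ T cells. Il10 had 3, 7, 7, 0 and 2 reads in unstimulated cells, IL-2 at 90 min, IL-2-REH at 90 min, IL-2 at 4 hr and IL-2-REH at 4 hr, and Ebi3 had 21, 9, 6, 2 and 3. Foxp3 lay between 0.482 and 0.999 RPKM, Lrrc32 between 0.375 and 0.754 RPKM and Nrp1 between 0.326 and 1.32 RPKM. The other 5 genes averaged at least 1 RPKM.

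In CD8+ T cells Ikzf4 and Nt5e were higher after cytokine and Ctla4 was lower. Ikzf4 was at 0.577 RPKM unstimulated, 9.30 after 90 min of IL-2, 2.69 after 90 min of IL-2-REH, 6.82 after 4 hr of IL-2 and 2.63 after 4 hr of IL-2-REH. The log2 ratio of RPKM + 1 against unstimulated cells was 2.71 and 2.31 for IL-2 and 1.23 and 1.2 for IL-2-REH. Nt5e was at 15.9 RPKM unstimulated, and in the same order at 71.2, 39.8, 37.6 and 25 RPKM. Both genes were higher in each of the 4 treated libraries than in the unstimulated one, and higher with IL-2 than with IL-2-REH at each time. Ctla4 was at 22.1 RPKM unstimulated and at 5.32, 5.09, 2.92 and 4.26 RPKM in the treated libraries. Among the 5 genes that averaged at least 1 RPKM in these libraries, Ikzf4 and Nt5e were the 2 past a log2 ratio of 1 at 90 min of IL-2, where 2.81% of all genes at that level were, and Ctla4 the 1 below -1, where 4.43% were. The 5 lower genes were at 1.32 RPKM or below. Adding 1 to such values leaves little room to pass either limit, so that none did is no finding. The counts were 2 and 1 also at 4 hr of IL-2 (1.31% and 3.4% of genes) and at 90 min of IL-2-REH (2.46% and 6.11%). They were 1 and 1 at 4 hr of IL-2-REH (1.78% and 4.33%), where Nt5e was at 0.63.

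Between IL-2-REH and IL-2, 3 genes passed a log2 ratio of 1 or -1 at 1 or both times in CD8+ T cells. Ikzf4 and Gpr83 were more than 2-fold lower with IL-2-REH on the RPKM + 1 scale at both times, 2 of the same 5 genes where 0.808% of genes were at 90 min and 1.68% at 4 hr. Gpr83 was at 1.55 RPKM with IL-2 against 0.171 with IL-2-REH at 90 min, and at 3.15 against 0.245 RPKM at 4 hr. Ikzf2 went the other way, at 3.51 against 6.01 RPKM at 90 min and at 2.01 against 5.65 RPKM at 4 hr, the 1 gene of the 5 past a log2 ratio of 1 at 4 hr, where 0.549% were; 0 were past it at 90 min, where 0.0599% were. Nt5e passed at neither time, with log2 ratios of -0.82 and -0.57. With 1 library each, these differences have no replicate check. In Tregs the matching differences were -0.95 and -0.89 for Gpr83, -0.38 and -0.20 for Ikzf4 and -0.04 and -0.08 for Ikzf2 on the log2 scale; whether the cell types differed was not tested.

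The pathway partners of these genes were read as 2 lists. The first held 23 genes that act with them, such as receptors, ligands and cofactors, and all 23 were tested. edgeR called 0 of 23 in any comparison of cytokine with unstimulated Tregs, with a median log2 fold change of 0.54 at 90 min and -0.26 at 4 hr of IL-2, against -0.06 and 0.00 over all genes. At an unadjusted p under 0.05 there were 7 and 7 with IL-2 and 4 and 5 with IL-2-REH, again with no share of all genes. DESeq2 called 3 and 3 with IL-2, where it called 4.1% and 7.2% of all genes. With IL-2-REH it called 0 and 3, where it called 0.763% and 4.19%, and limma called 0. The nearest was Il10ra, the ligand-binding chain of the IL-10 receptor, at 19.4 ± 8.75 RPKM (SD, n = 3) unstimulated, 33.5 ± 5.02 at 90 min of IL-2 and 17.0 ± 2.28 at 90 min of IL-2-REH. With IL-2 the log2 fold change was 0.96 (edgeR adjusted p = 0.0739) at 90 min and 0.86 (adjusted p = 0.0660) at 4 hr, against -0.02 and -0.06 with IL-2-REH. The difference between the cytokines was -0.98 and -0.92, not called (edgeR adjusted p = 0.865 and 0.416). With the replicate block Il10ra was called higher at 4 hr of IL-2 (adjusted p = 0.0403), beside Sema4a and Ikzf3 lower. When unstimulated replicate 1 was left out, 8 of the 23 were called higher at 90 min of IL-2, where 12.9% of all genes were called in either direction: Tgfb1, Itgb8 and Itgav, which form and activate TGF-beta, the costimulation genes Cd80, Cd86 and Icos, the adenosine receptor gene Adora2a, and Il10ra. At 90 min of IL-2-REH, 7 were called higher without that library, all of the same 8 genes except Il10ra, where 12.1% of all genes were called. At 4 hr without it, 3 were called higher (Adora2a, Cd80 and Icos) and 2 lower (Ikzf3 and Sema4a) with IL-2, where 8.87% of all genes were called. With IL-2-REH 2 were higher (Adora2a and Cd80) and 3 lower (Ikzf1, Ikzf3 and Sema4a), where 6.93% were. In unstimulated Tregs Itgav ranged from 7.43 to 49.1 RPKM and Adora2a from 13.3 to 63.5 RPKM.

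The second list held 34 further genes of the Treg signature. With IL-2, edgeR called 2 higher at 90 min, Socs2 and Swap70, and 4 higher (Socs2, Swap70, Il2ra and Bach2) and 3 lower (Itgae, Lag3 and Rgs16) at 4 hr, where 0.78% of all genes were higher at 90 min, and 1.17% higher and 1.09% lower at 4 hr. The list's median log2 fold change was 0.40 at 90 min and 0.00 at 4 hr. Il2ra, the alpha chain of the IL-2 receptor, rose by 1.15 on the log2 scale at 4 hr of IL-2 (edgeR adjusted p = 0.0407), and Socs2, a feedback inhibitor of cytokine signaling, by 1.70 (adjusted p = 0.00675). Lag3, an inhibitory receptor, fell by 1.74 (adjusted p = 0.0305) and Itgae, an integrin chain of tissue lymphocytes, by 1.76 (adjusted p = 0.0324), both by edgeR. With IL-2-REH edgeR called 0 of the 34 at either time. DESeq2 called 1 and 5, where it called 0.763% and 4.19% of all genes, and limma called 0 and 1. An unadjusted p under 0.05 was seen for 7 and 10, again with no share of all genes. With the replicate block 3 were called higher (Socs2, Pdcd1 and Tnfrsf18) and 2 lower (Lag3 and Rgs16) at 4 hr. In the block fit of IL-2 the counts were 5 higher at 90 min, and 7 higher and 6 lower at 4 hr, where 6.94% of all genes were called in either direction. For the other block fits the share of all genes is not given, so those counts are no result about the list. With unstimulated replicate 1 left out they were 13 higher and 0 lower at 90 min of IL-2, 9 and 3 at 4 hr, 12 and 0 at 90 min of IL-2-REH, and 7 and 3 at 4 hr, where 12.9%, 8.87%, 12.1% and 6.93% of all genes were called in either direction.

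The genes with the most similar pattern to each of the 10 were sought by Pearson's r of log2(RPKM + 1) over the 15 Treg libraries, among 10473 genes. These points share libraries and depth, so r is a description. Ikzf4 was the only one of the 10 whose closest gene was another of the 10, Lrrc32 (r = 0.933). Foxp3 was most like Cmtm6 (r = 0.956), Lrrc32 like Mpzl1 (r = 0.980), Il10 like Pmaip1 (r = 0.963), Nrp1 like Acsf2 (r = 0.976) and Ebi3 like Cd7 (r = 0.963). Ikzf2 was most like Krit1 (r = 0.969), Ctla4 like Smarca5-ps (r = 0.966) and Nt5e like Acvr2a (r = 0.944). Gpr83 was most like Zscan29 (r = 0.953) and Socs2 (r = 0.951), the feedback inhibitor named above. Between members, the next highest values were 0.898 for Ctla4 and Il10 and 0.788 for Ctla4 and Nt5e.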

How the data were processed

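Tregs and CD8+ T cells were profiled by RNA-seq with a poly(A) library kit and 50 bp single-end reads. Per the study's methods, the authors aligned reads to mm10, retained those with a unique position, counted them on exons and scaled the counts to RPKM; the submitters' processing notes list Bowtie2 2.2.6, TopHat2 2.1.1, SAMtools 0.1.8 and bedtools 2.25.0. The deposited tables hold raw read counts and RPKM values for 31682 transcripts of 23992 gene symbols in each of 20 libraries. One transcript per symbol was kept, that with the highest summed read number.

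Counts of the 15 Treg libraries were fitted with 1 mean per group in edgeR 4.0.16 (TMM scaling, filterByExpr, quasi-likelihood test; R 4.3.3), with Benjamini-Hochberg adjustment over 14992 genes and a threshold of 0.05. Standard errors and 95% intervals came from the F statistic. CD8+ libraries, 1 per group, were compared as log2 ratios of RPKM + 1, over genes with a mean of at least 1 RPKM. Alternatives were DESeq2 1.42.0, a block for the replicate number, limma 3.58.1 with 1 or 0.1 added to RPKM before the log2, no filter, only the groups compared, the longest transcript and libraries left out; leaving out each of 14 further single libraries was added after the values were seen. Deviations of same-numbered Treg libraries from their group means correlated positively in every pair of groups (lowest r = 0.121, mean 0.538). The numbers, which come from the sample titles, were therefore taken to pair the libraries. Deviations cancel within a group, so the mean of -0.257 for different numbers follows largely from that and is no separate support. The main fit did not use this pairing. At 4 hr of IL-2 it called 1.17% of all genes higher and 1.09% lower, and the block fit called 6.94%. The fits were also run on simulated counts of independent libraries with the same spread for every gene. Those counts held no paired replicates and no library that stood apart, so that run does not bear on these features of the data.

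The text names the 10 genes always, members of the 2 lists that were called or act with one of the 10, and the genes most similar in pattern. Genes and lists were chosen with earlier results of these data known. Promoter windows are from RefSeq on GRCm38.p6, matched by symbol, and gene overlaps from GENCODE M21.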

Additional observations from a re-analysis of the deposited data

Results flagged for a closer look

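In 6 cases the CD8+ pair of libraries moved opposite to all 3 same-numbered Treg pairs. The difference between cell types was not tested, and the ratios given are of RPKM. Each CD8+ condition was 1 library, and the share of all genes with such opposite pairs is not given. The count of 6 is therefore no result about these genes. Gpr83 after 4 hr of IL-2-REH was 0.2 times its unstimulated level in CD8+ T cells, on 40 and 170 reads, and 11.9, 1.25 and 1.94 times in Tregs. Ikzf2 in the same comparison was 2.03 times in CD8+ T cells and 0.742, 0.996 and 0.579 times in Tregs. Nt5e with IL-2-REH against IL-2 at 90 min was 0.559 times in CD8+ T cells and 1.12, 1.08 and 1.02 times in Tregs. The other 3 rested on small differences or few reads in CD8+ T cells. Foxp3 after 90 min of IL-2-REH was 0.93 times the unstimulated level, on 115 and 122 reads, and Lrrc32 was 0.869 times, on 89 and 101 reads. Ebi3 with IL-2-REH against IL-2 at 90 min was 0.744 times, on 6 and 9 reads.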

How the results depend on the processing

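No filter on low counts and the longest transcript changed no count of called genes. The replicate block changed 2 calls among the 10 genes, Il10 and Ebi3 at 4 hr of IL-2, where 6 in place of 4 were called, and the count stayed at 3, 1 and 1 in the other comparisons with unstimulated Tregs; it changed no other call of the 10. With only the groups compared the counts were 1 (90 min) and 0 (4 hr) for IL-2 and 0 and 0 for IL-2-REH. Fewer libraries then estimate the spread, and the share of all genes called is not given. DESeq2 called 4 genes at 90 min (Gpr83 added) and 6 at 4 hr (Il10 and Ebi3 added) of IL-2, 2 in each IL-2-REH comparison, 1 between cytokines at 4 hr and 2 between times of IL-2, and limma, with either pseudocount, called 0 for IL-2-REH and did not call Foxp3 at 90 min of IL-2. Leaving out libraries gave 0 to 6 genes at 90 min and 0 to 5 at 4 hr of IL-2, 0 to 4 and 0 to 2 for IL-2-REH, and 0 to 1 between times of IL-2. In CD8+ T cells a pseudocount of 0.1 gave 5 genes at 4 hr of IL-2 and 6 and 4 with IL-2-REH at 90 min and 4 hr, while a threshold of 2 gave 0 and 1 with IL-2-REH and 0 and 0 between cytokines. The causes were not tested.

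Changes of sign occurred only in log2 fold changes that were not called. Ikzf2 was -0.093 and -0.094 by limma (pseudocounts of 1 and 0.1) at 90 min of IL-2. With IL-2-REH at 90 min it was -0.0058 with the block, -0.0080 by DESeq2, -0.13 and -0.14 by limma and -0.013 with only the groups compared. Between cytokines at 4 hr limma gave 0.0022 and 0.0028 for Ikzf2 and 0.0066 and 0.0073 for Nt5e, and between times of IL-2-REH 0.031 and 0.037 for Ebi3. Leaving out libraries turned the sign of further values. At 90 min of IL-2 the range was -0.049 to 0.16 for Ikzf2, -0.045 to 1.09 for Ctla4 and -0.59 to 0.79 for Il10, and at 4 hr -0.39 to 0.38 for Nt5e. At 90 min of IL-2-REH it was -0.088 to 0.080 for Ikzf2, -0.14 to 0.95 for Ctla4, -0.19 to 1.05 for Il10 and -0.12 to 1.21 for Gpr83, and at 4 hr -0.45 to 0.29 for Nt5e. Between cytokines it was -0.11 to 0.046 (90 min) and -0.18 to 0.078 (4 hr) for Ikzf2 and -0.23 to 0.35 (4 hr) for Ctla4, and between times of IL-2 -0.20 to 0.41 for Foxp3.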
